A study of Saccharomyces cerevisiae with 18 samples.

Results

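The response of the reference yeast strain to falling glucose was followed in 6 arrays, 3 from cells at low glucose and 3 from cells at high glucose, of the 18 arrays in the series. These were taken by title, which names the strain, the glucose level and the replicate. The study grew Saccharomyces cerevisiae with air in bioreactors of 1 L, at pH 5.0 and 30 °C, starting with 40 g/L glucose. Low-glucose samples were taken at 5 g/L glucose and high-glucose samples at 15 to 20 g/L. In every culture the chromosomal SNF1 was deleted and a plasmid supplied a kinase, so the reference strain is itself a deletion mutant whose HA-Snf1 came from a plasmid. In the Alpha1 strain the plasmid encoded HA-Alpha1, in which the regulatory domain of Snf1 follows the catalytic domain taken from AMPK Alpha1. In the T210A strain it encoded HA-T210A, which is Snf1 with Ala in place of Thr210, the site of its activating phosphorylation. The labels call all samples steady state and the 3 arrays of a group biological replicates. They say nothing more on how the cultures were related. P-values measure the spread between arrays of the same group, pooled over the 18 arrays. The standard error of a Snf1 difference therefore also holds the spread of the other strains' arrays. Sampling times are not given in the sources used here, and glucose level cannot be told apart from time in culture.

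Snf1 is the yeast AMP-activated protein kinase. When glucose runs short it is activated by phosphorylation, it inactivates the repressor Mig1, and it is needed for the expression of genes that abundant glucose represses, many of them through the activators Cat8, Adr1 and the Hap complex. Yeast in abundant glucose ferments, represses respiration and the use of other sugars, and builds ribosomes quickly, whereas a drop in glucose brings high-affinity uptake, respiration, storage carbohydrates and stress proteins.

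Values are log2 signals of 1 probe set per gene for 5449 genes, and no gene's level is set against that of another. A difference is the mean of the 3 low-glucose arrays minus that of the 3 high-glucose arrays, on the log2 scale and with its standard error from limma. A gene is said to rise or fall where limma's Benjamini-Hochberg adjusted p over the 5449 genes was under 0.05. By that rule 67.3% of the genes changed between the glucose levels, 34.7% (1889) being higher and 32.7% (1780) lower, and for 74.2% the 3 arrays of one level did not overlap the 3 of the other. The differences had a median of 0.00 and quartiles of -0.54 and 0.60. Counts of called genes in a group are therefore read against 34.7% and 32.7%. Quantile normalization turned the split to 1822 higher and 2009 lower, and median centring to 1853 and 1905. Changes of at least 2-fold were rarer, with 16.3% of genes higher and 14.1% lower. Rises of at least 16-fold were found in 80 genes (1.47%) and falls of that size in 17 (0.312%). Signals within 1 log2 unit of the lowest on the arrays, so group means under 3.25, are called near the floor, where folds are uncertain. Both means lay there for 382 genes. Among genes with a rise given below, the high-glucose mean was near the floor for ADR1, ARO9, CAT8, DSF1, GAC1, GAL3, GAL7, GPH1, HXT17, ISF1, MAL11, MBR1, MLS1, MRK1, NDE2, POT1, POX1, RGI2, RTN2, SFC1, SIP4, TKL2, YIG1 and YMR206W, and both means were for ADY2, CTA1, FBP1, GAL1, GAL2 and MPH2, which were called higher. Among those with a fall, the low-glucose mean was near the floor for BFR2, INO2, PHO84, RSA4, SRP40, TOD6 and YGK3.

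Replicate arrays of the Snf1 strain correlated across genes at 0.996 to 0.998 at low glucose and at 0.996 to 0.997 at high glucose, with median within-group SDs of 0.115 and 0.108. SNF1 (YDR477W) itself read 8.44, 8.74 and 8.53 at low glucose, against 7.14, 7.31 and 7.06 at high glucose. It rose by 1.40 ± 0.13 (adjusted p = 4.29e-07), but its probe set may read the plasmid transcript, so the values check neither the deletion nor the label. As for mating type, the alpha-cell genes STE3 and SAG1 had means of 9.46 against 9.65 and 10.53 against 10.02 at low and high glucose. The a-cell genes STE2 and MFA1 had means of 3.77 against 4.06 and 4.01 against 4.59. Of 6 a-cell genes measured 2 had both means near the floor, and of 5 alpha-cell genes 0 had. Levels of the rest are not given, so no mating type is read from these values.

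Of the glucose transporters, the low-affinity HXT1 (YHR094C) had signals of 4.63, 4.82 and 4.61 at low glucose, against 9.58, 9.58 and 9.56 at high glucose. The groups were far apart, and HXT1 fell 29.6-fold (-4.89 ± 0.21, adjusted p = 1.65e-10). HXT3, another low-affinity transporter, read 8.98, 9.17 and 8.93 at low glucose, against 10.99, 11.10 and 10.84 at high glucose, and fell by 1.95 ± 0.27 without overlap. In these bulk samples fewer cells with a transcript and less of it per cell cannot be told apart. Transporters of higher affinity went the other way. HXT2 read 9.90, 10.01 and 9.92 at low glucose, against 7.56, 7.74 and 7.25 at high glucose, and rose 5.37-fold (2.42 ± 0.31, adjusted p = 7.95e-06). HXT4 rose 4.83-fold, with 10.98, 10.93 and 10.89 at low glucose, against 8.69, 9.03 and 8.27 at high glucose. HXT7 read 12.57, 12.53 and 12.61 at low glucose, against 5.91, 6.27 and 5.80 at high glucose, a 95.5-fold rise, on a probe set that may also read its near-identical neighbour. HXT17 read 8.23, 8.42 and 8.40 at low glucose, against 2.50, 2.50 and 2.50 at high glucose, on a probe set that is also shared between similar sequences. The transporter of slow-growing and starved cells, HXT5, stayed near the floor at both levels, with 2.52, 2.67 and 2.55 at low glucose, against 2.56, 2.55 and 2.52 at high glucose. Of 21 sugar transporters and sensors measured, 10 rose and 3 fell, and 10, of which GAL2 and MPH2 were called, had both means near the floor.

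**Figure D1:**
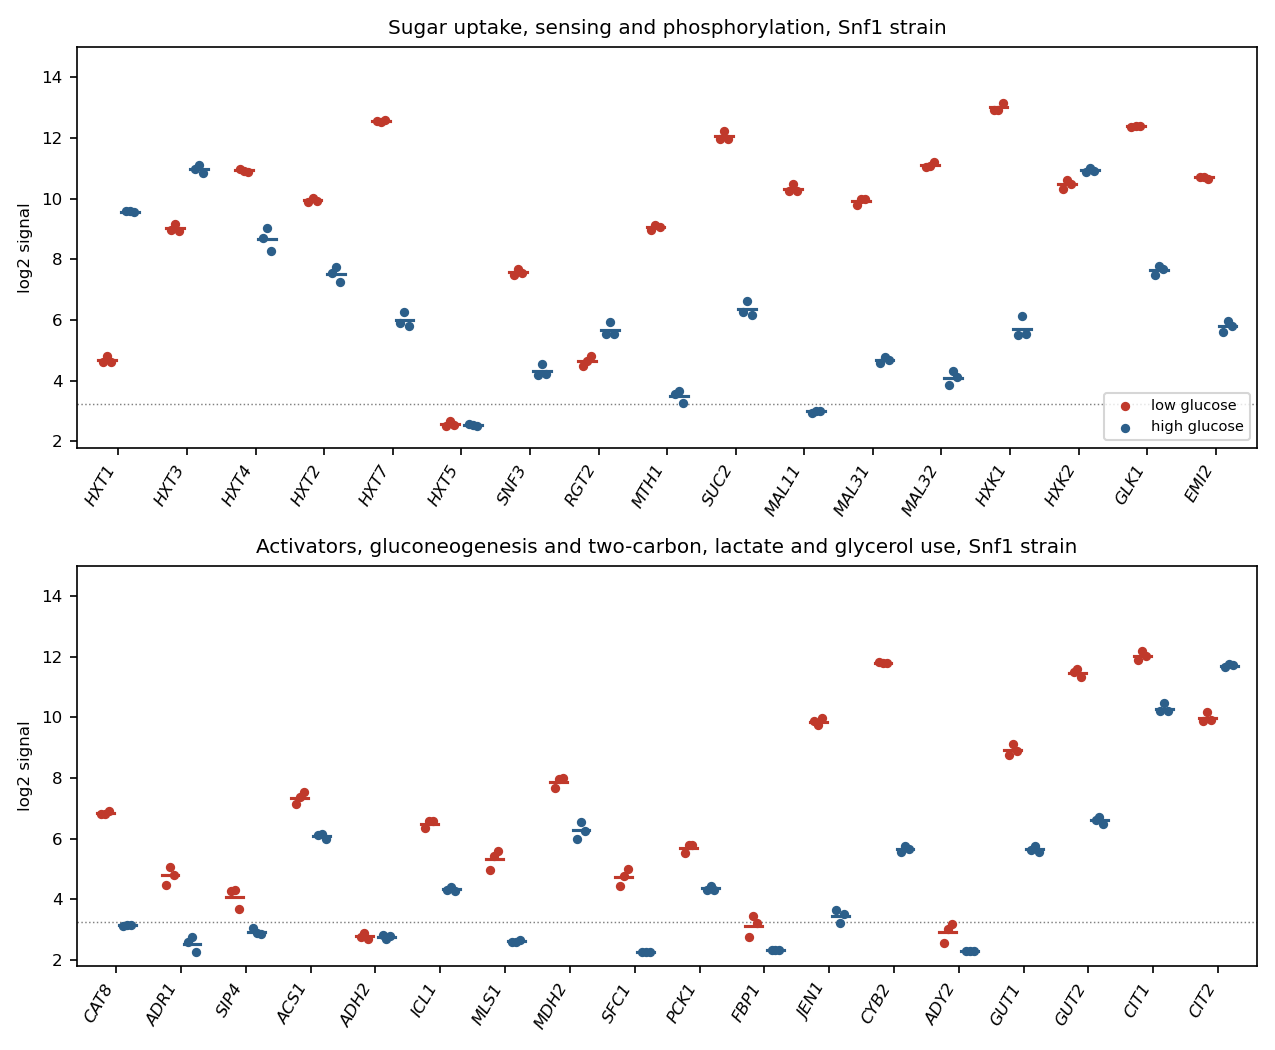
Log2 signal of each array of the Snf1 strain at low (left, red) and high glucose (right, blue), with bars at the means and a dotted line at 3.25, under which values are near the floor. HXT1 and HXT3 were lower at low glucose and HXT2, HXT4, HXT7, SUC2 and HXK1 higher, whereas HXT5, ADH2, FBP1 and ADY2 had means near the floor at both levels.

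Of 10 genes of the sensing pathway that controls these transporters 4 rose and 4 fell, beside 34.7% and 32.7% of all genes. SNF3, the sensor for scarce glucose, read 7.47, 7.68 and 7.56 at low glucose, against 4.18, 4.54 and 4.23 at high glucose, and rose 9.51-fold. RGT2, the sensor for abundant glucose, read 4.48, 4.64 and 4.83 at low glucose, against 5.55, 5.93 and 5.55 at high glucose, and fell 2.04-fold. For neither did the groups overlap. MTH1, a corepressor that keeps Rgt1 on transporter promoters, read 8.97, 9.14 and 9.08 at low glucose, against 3.56, 3.66 and 3.26 at high glucose, a 47.5-fold rise (5.57 ± 0.13, adjusted p = 7.78e-13). Its paralogue STD1 differed by -0.29 ± 0.12 (adjusted p = 0.0433), a call that was lost when any of 5 of the 6 Snf1 arrays was left out. RGT1, the repressor itself, rose by 0.63 ± 0.15.

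The kinases that phosphorylate incoming sugar did not move alike. HXK1 (YFR053C), the hexokinase of glucose-poor cells, read 12.94, 12.92 and 13.16 at low glucose, against 5.52, 6.12 and 5.53 at high glucose. It rose 156-fold (7.28 ± 0.27, adjusted p = 2.66e-11). The glucokinase gene GLK1 read 12.36, 12.41 and 12.40 at low glucose, against 7.48, 7.79 and 7.69 at high glucose, and rose 26.6-fold. Its paralogue EMI2 read 10.72, 10.72 and 10.66 at low glucose, against 5.60, 5.96 and 5.82 at high glucose, and rose 30.0-fold. HXK2, the hexokinase of glucose-rich cells that also takes part in repression, read 10.31, 10.63 and 10.48 at low glucose, against 10.89, 11.01 and 10.90 at high glucose. Its arrays did not overlap, yet the fall was small (-0.46 ± 0.14, adjusted p = 0.0121), and the call was lost without low-glucose replicate 1.

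Genes for the use of sucrose and maltose rose together. All 9 measured genes of invertase and maltose use were called higher, with a median difference of 2.96. SUC2, the invertase gene, read 11.98, 12.24 and 11.97 at low glucose, against 6.27, 6.63 and 6.18 at high glucose, and its groups were 52.0-fold apart (adjusted p = 7.65e-09). MAL11, a maltose transporter gene, read 10.24, 10.49 and 10.24 at low glucose, against 2.95, 3.02 and 3.02 at high glucose, a 160.0-fold rise. MAL32, for maltase, read 11.06, 11.08 and 11.20 at low glucose, against 3.86, 4.31 and 4.11 at high glucose, on a probe set that may read the near-identical MAL12. MAL31, for a maltose permease, rose 37.7-fold. The isomaltase gene IMA1 rose by 2.96 ± 0.24 and the activator gene MAL33 by 1.70 ± 0.12. Genes of the galactose enzymes were close to the floor, with means at low and high glucose of 3.10 against 2.42 for GAL1, 3.71 against 2.45 for GAL7 and 2.35 against 2.26 for GAL10, of which the first and second were called higher. Of 8 genes of galactose use 6 were called higher and 0 lower. GAL3, the galactose sensor, rose by 1.84 ± 0.17.

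Among genes of the Snf1 kinase complex and its regulators, 9 of 16 rose and 3 fell. REG2, which targets the phosphatase Glc7 to Snf1, read 9.45, 9.56 and 9.54 at low glucose, against 3.40, 3.52 and 3.44 at high glucose, and rose 66.9-fold. Its paralogue REG1 differed by 0.41 ± 0.14 (adjusted p = 0.0167, not called when any of 4 of the arrays was left out). The catalytic subunit gene GLC7 rose by 0.45 ± 0.05. Of the beta subunits, SIP2 read 6.76, 6.86 and 7.04 at low glucose, against 3.59, 4.06 and 4.02 at high glucose, and rose 7.97-fold. GAL83 rose by 0.79 ± 0.20, and SIP1 differed by 0.09 ± 0.18 and was not called. The gamma subunit gene SNF4 rose by 0.92 ± 0.10. Of the upstream kinases, ELM1 fell by 0.81 ± 0.21, and TOS3 differed by 0.81 ± 0.45 (adjusted p = 0.125). The TOS3 difference was called when array weights were used (adjusted p = 0.000221) or the compared groups were fitted alone (adjusted p = 0.00748). Of 10 repressor and corepressor genes 4 rose and 2 fell. MIG1 read 7.69, 8.02 and 7.93 at low glucose, against 5.98, 6.30 and 5.89 at high glucose, and rose 3.54-fold. MIG2 read 5.07, 5.06 and 4.91 at low glucose, against 6.39, 6.53 and 6.66 at high glucose, a fall of 2.85-fold. MIG3 read 4.12, 4.55 and 4.69 at low glucose, against 6.31, 6.34 and 6.37 at high glucose, a fall of 3.71-fold. Mig1 and its relatives moved in opposite directions at the transcript level. NRG1 and NRG2 rose by 0.70 ± 0.07 and 1.23 ± 0.16. The corepressor genes CYC8 and TUP1 were not called, with differences of 0.17 (adjusted p = 0.165) and -0.27 (adjusted p = 0.144). TUP1 was called with replicate number as a block across strains (adjusted p = 0.0444) but not with a block within each strain (adjusted p = 0.0698), and CYC8 was called with the second form but not the first (adjusted p = 0.0415). Both were called with array weights, and TUP1 after quantile normalization.

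Of 20 genes for activators of glucose-repressed genes, 15 rose and 1 fell. CAT8, the activator of gluconeogenic genes, read 6.82, 6.81 and 6.92 at low glucose, against 3.11, 3.17 and 3.16 at high glucose. The groups were far apart (3.70 ± 0.17, adjusted p = 2.07e-10). ADR1, which acts on genes for ethanol and fatty acid use, read 4.49, 5.08 and 4.81 at low glucose, against 2.60, 2.75 and 2.26 at high glucose, and rose 4.77-fold. SIP4, a further activator of gluconeogenesis, read 4.28, 4.30 and 3.70 at low glucose, against 3.06, 2.89 and 2.86 at high glucose, and rose by 1.16 ± 0.15. HAP4, the limiting subunit of the respiratory activator, read 11.00, 10.98 and 10.93 at low glucose, against 8.12, 8.22 and 7.93 at high glucose, and rose 7.37-fold. The other subunits HAP2, HAP3 and HAP5 rose by 1.07, 0.82 and 1.21. The zinc-finger regulators USV1 and GIS1, active after the diauxic shift, rose 46.0-fold and 5.93-fold. Of the stress activators MSN4 rose by 1.45 ± 0.12, while its paralogue MSN2 differed by -0.30 ± 0.15 and was not called (adjusted p = 0.0829, or 0.0174 with the replicate block). MSN2 was also called lower after quantile normalization (adjusted p = 0.0242) and median centring (adjusted p = 0.0159). The same held with the block within each strain, with array weights and without low-glucose replicate 2 (adjusted p = 0.0454, 0.0473 and 0.0425).

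Genes of ethanol use, gluconeogenesis and the glyoxylate cycle differed widely in their response. ADH2, the ethanol-oxidizing alcohol dehydrogenase, read 2.76, 2.91 and 2.69 at low glucose, against 2.83, 2.69 and 2.78 at high glucose, near the floor and overlapping, and was not called (0.02 ± 0.06, adjusted p = 0.811). FBP1, the fructose bisphosphatase of gluconeogenesis, read 2.75, 3.45 and 3.21 at low glucose, against 2.32, 2.32 and 2.32 at high glucose. It was called (0.81 ± 0.16, adjusted p = 0.000484), but its means at both levels were near the floor. PCK1, which opens gluconeogenesis, read 5.54, 5.78 and 5.80 at low glucose, against 4.31, 4.46 and 4.32 at high glucose, and rose 2.54-fold. The glyoxylate cycle genes ICL1 and MLS1 rose 4.48-fold and 6.50-fold, with ICL1 at 6.35, 6.57 and 6.57 at low glucose, against 4.31, 4.42 and 4.27 at high glucose. The succinate-fumarate carrier gene SFC1 read 4.45, 4.78 and 5.00 at low glucose, against 2.27, 2.27 and 2.27 at high glucose, and rose. The cytosolic NADP isocitrate dehydrogenase gene IDP2 rose 9.47-fold. In all, 14 of 19 genes of gluconeogenesis and the glyoxylate cycle rose (median 1.19) and 4 fell, among them the peroxisomal citrate synthase gene CIT2 (-1.72 ± 0.12) and the malic enzyme gene MAE1, which read 6.63, 7.01 and 6.54 at low glucose, against 10.44, 10.78 and 10.54 at high glucose. FYV10 and VID24, subunits of the ligase complex that removes gluconeogenic enzymes when glucose returns, rose by 2.48 ± 0.15 and 1.19 ± 0.20.

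Genes of carboxylate and acetate uptake and lactate oxidation did not move as a unit, with 5 of 8 rising and 3 falling. JEN1, the lactate permease, read 9.87, 9.75 and 9.97 at low glucose, against 3.64, 3.23 and 3.52 at high glucose, and rose 84.5-fold. CYB2, the lactate cytochrome c oxidoreductase, read 11.83, 11.79 and 11.79 at low glucose, against 5.58, 5.77 and 5.67 at high glucose, and rose 70.0-fold. DLD3, a cytosolic lactate dehydrogenase, fell, with 7.98, 8.09 and 7.98 at low glucose, against 10.70, 10.64 and 10.53 at high glucose. The acetate permease gene ADY2 had means of 2.93 against 2.31 at low and high glucose, both near the floor. Of its paralogues ATO2 rose 11.0-fold and ATO3 fell 9.77-fold. For acetaldehyde and acetate, the mitochondrial ALD4 read 12.21, 12.47 and 12.28 at low glucose, against 8.57, 8.66 and 8.44 at high glucose, and rose 13.6-fold. ALD5, another mitochondrial form, fell by 1.67 ± 0.11. Of the acetyl-CoA synthetase genes ACS1 rose by 1.25 ± 0.17 and ACS2 fell by 0.67 ± 0.15.

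Most transcripts of glycolysis changed little beside those of hexose entry. Of 18 genes 11 rose and 3 fell, with a median of 0.22, and the 11 became 7 after quantile normalization, under which the small rises of PGK1 and TPI1 were no longer called. The phosphofructokinase subunits PFK1 and PFK2 fell, with differences of -0.74 ± 0.12 and -0.65 ± 0.13. PFK26 and FBP26, which make and remove the phosphofructokinase activator fructose-2,6-bisphosphate, both rose, by 2.39 ± 0.11 and 1.72 ± 0.17. Minor isozymes rose further. TDH1, a glyceraldehyde-3-phosphate dehydrogenase, read 12.74, 12.54 and 12.73 at low glucose, against 9.31, 9.40 and 9.29 at high glucose. PYK2, a pyruvate kinase, read 7.43, 7.67 and 7.70 at low glucose, against 5.57, 5.55 and 5.32 at high glucose. GPM2, a paralogue of phosphoglycerate mutase, rose 9.88-fold. The major pyruvate kinase gene CDC19 differed by 0.04 ± 0.07 and was not called. The major fermentative genes PDC1 and ADH1 differed by -0.23 ± 0.08 and 0.30 ± 0.04, both called, and after quantile normalization ADH1 was no longer called.

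Genes of mitochondrial metabolism rose together. Of 31 genes of pyruvate entry and the TCA cycle 27 rose and 0 fell (median 1.36). MPC3, the pyruvate carrier subunit of respiring cells, read 11.03, 11.19 and 11.03 at low glucose, against 7.47, 7.32 and 7.33 at high glucose. Succinate dehydrogenase moved together, with rises of 9.72-fold for SDH1, 7.08-fold for SDH2, 4.36-fold for SDH3 and 9.51-fold for SDH4. SDH1 read 9.63, 9.78 and 9.73 at low glucose, against 6.27, 6.56 and 6.47 at high glucose. The mitochondrial malate dehydrogenase gene MDH1 rose 7.53-fold and the oxoglutarate dehydrogenase genes KGD1 and KGD2 4.39-fold and 5.21-fold. In the pyruvate dehydrogenase complex the changes were smaller, at 0.82 ± 0.15 for LAT1 and 0.97 ± 0.11 for LPD1, while PKP1 and PTC6, a kinase and a phosphatase of the complex, rose by 1.54 ± 0.19 and 1.54 ± 0.36.

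All 44 genes of the respiratory chain and ATP synthase rose, 42 of them at least 2-fold, but their sizes spanned 0.91 to 6.51. Alternative and regulatory subunits had some of the larger rises. CYC7, the minor cytochrome c, read 11.24, 10.68 and 11.17 at low glucose, against 4.50, 4.45 and 4.60 at high glucose, and rose 91.1-fold. CYC1, the major one, read 12.69, 12.53 and 12.55 at low glucose, against 11.63, 11.53 and 11.60 at high glucose, and rose by 1.00 ± 0.07. COX5B, the subunit form of low oxygen, rose 13.6-fold and COX5A 2.38-fold. NDE2, an external NADH dehydrogenase, rose by 3.32 ± 0.27, and NDI1, the internal one, rose 7.90-fold. INH1, STF1 and STF2, which restrain ATP hydrolysis by the ATP synthase, rose 5.29-fold, 8.38-fold and 22.1-fold, while the catalytic subunit gene ATP1 rose by 0.91 ± 0.07. Coenzyme Q and haem synthesis contributed 14 rises in 18 genes, among them COQ3 and HEM15 at 2.02 ± 0.14 and 1.91 ± 0.20. Mitochondrial tRNA synthetases rose in 13 of 14 genes (median 1.13), whereas all 20 cytosolic ones fell (median -1.19).

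Mitochondrial carriers and the import machinery were mixed, with 17 rises and 6 falls among 33 genes. PIC2, a phosphate and copper carrier, read 12.38, 12.33 and 12.43 at low glucose, against 6.93, 7.28 and 7.29 at high glucose, and rose 37.1-fold. CTP1, the citrate carrier, read 7.31, 7.45 and 7.37 at low glucose, against 10.07, 10.10 and 10.19 at high glucose, and fell 6.69-fold. YMC2, an amino acid carrier, fell 15.8-fold. ODC1 and ODC2, the oxodicarboxylate carriers, went in opposite directions, at 2.79 ± 0.15 and -1.18 ± 0.14.

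**Figure D2:**
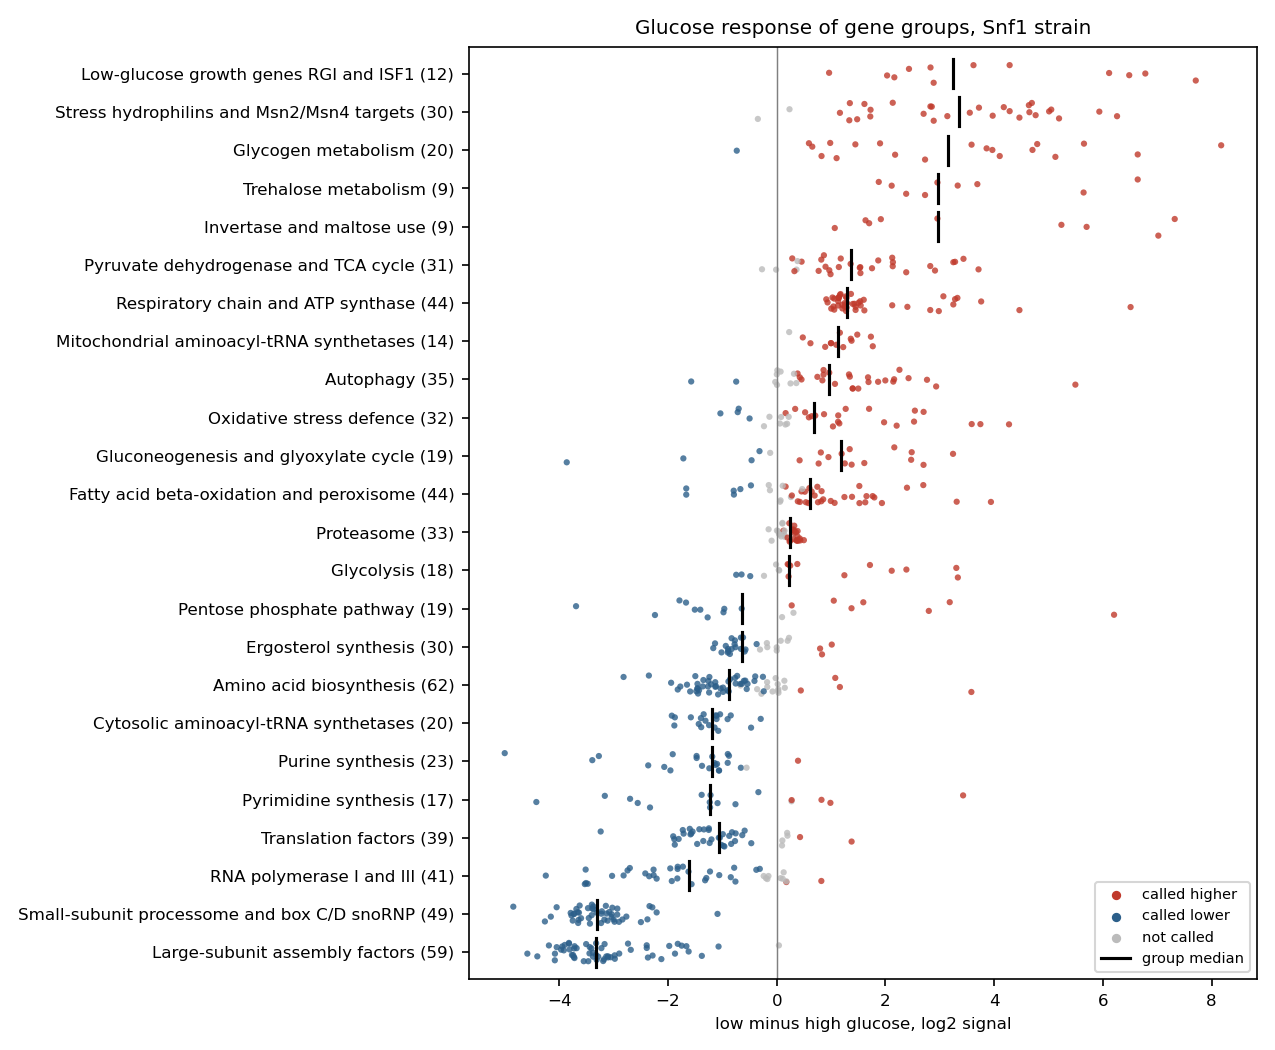
Difference between low and high glucose (log2 signal) for each measured gene of 24 groups in the Snf1 strain, 1 point per gene, coloured by its call, with the number of genes in parentheses and a bar at the group median. Medians ran up to 3.35 for stress hydrophilins and Msn2/Msn4 targets and down to -3.32 for large-subunit assembly factors, while the median of all genes was 0.00.

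Storage carbohydrate genes held several of the largest changes. GPH1 (YPR160W), the glycogen phosphorylase, read 11.33, 11.20 and 11.21 at low glucose, against 2.96, 3.21 and 3.05 at high glucose, and rose 289-fold (8.18 ± 0.24, adjusted p = 4.79e-12), the largest rise among the 5449 genes. Synthesis rose beside breakdown: GSY1 and GSY2, the glycogen synthases, rose 50.3-fold and 15.6-fold, GLC3, the branching enzyme, 26.1-fold, and GDB1, the debranching enzyme, 34.9-fold. PGM2, the phosphoglucomutase that feeds them, read 11.16, 11.39 and 11.26 at low glucose, against 4.58, 4.77 and 4.52 at high glucose. Its paralogue PGM1 read 6.24, 6.49 and 6.42 at low glucose, against 6.99, 7.36 and 7.01 at high glucose, and fell by 0.73 ± 0.22. GAC1, which targets the Glc7 phosphatase to glycogen synthase, rose by 4.79 ± 0.32. In all 19 of 20 glycogen genes rose (median 3.16). All 9 trehalose genes rose too (median 2.96), both for synthesis (TPS1 10.1-fold, TPS2 12.9-fold, TPS3 3.67-fold) and for hydrolysis (NTH1 5.21-fold, ATH1 7.76-fold). The lists of glycogen and trehalose share PGM2 and UGP1.

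Glycerol genes were mixed, 7 of 12 rising and 3 falling. Those for its use rose. GUT2, the mitochondrial glycerol-3-phosphate dehydrogenase, read 11.48, 11.58 and 11.32 at low glucose, against 6.63, 6.73 and 6.49 at high glucose. GUT1, glycerol kinase, rose 9.66-fold. GPP1, a glycerol-1-phosphatase of glycerol synthesis, read 10.32, 10.47 and 10.22 at low glucose, against 12.75, 12.87 and 12.93 at high glucose, and fell 5.71-fold. Its paralogue GPP2 rose by 0.98 ± 0.14, and GPD1, which makes glycerol-3-phosphate in the cytosol, by 1.13 ± 0.16.

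In the pentose phosphate pathway several paralogues were opposed. The lactonase gene SOL4 read 10.73, 10.59 and 10.34 at low glucose, against 4.34, 4.41 and 4.30 at high glucose, a 73.8-fold rise. The lactonase gene SOL3 read 9.40, 9.44 and 9.45 at low glucose, against 10.41, 10.41 and 10.40 at high glucose, a fall of 1.97-fold. The dehydrogenase genes GND2 and GND1 differed by 2.80 ± 0.25 and -0.96 ± 0.17, and the transketolase genes TKL2 and TKL1 by 3.18 ± 0.40 and -1.27 ± 0.15. ZWF1, the entry enzyme, differed by 0.31 ± 0.20 and was not called (adjusted p = 0.197, or 0.0247 with the replicate block). RKI1, the ribose isomerase, read 5.66, 5.89 and 5.87 at low glucose, against 9.44, 9.46 and 9.60 at high glucose, and fell 12.9-fold. The phosphoribosyl pyrophosphate synthetase genes PRS1, PRS3, PRS4 and PRS5 fell, with differences of -1.79, -2.24, -1.51 and -1.41. Of 19 genes 7 rose and 10 fell.

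**Figure D3:**
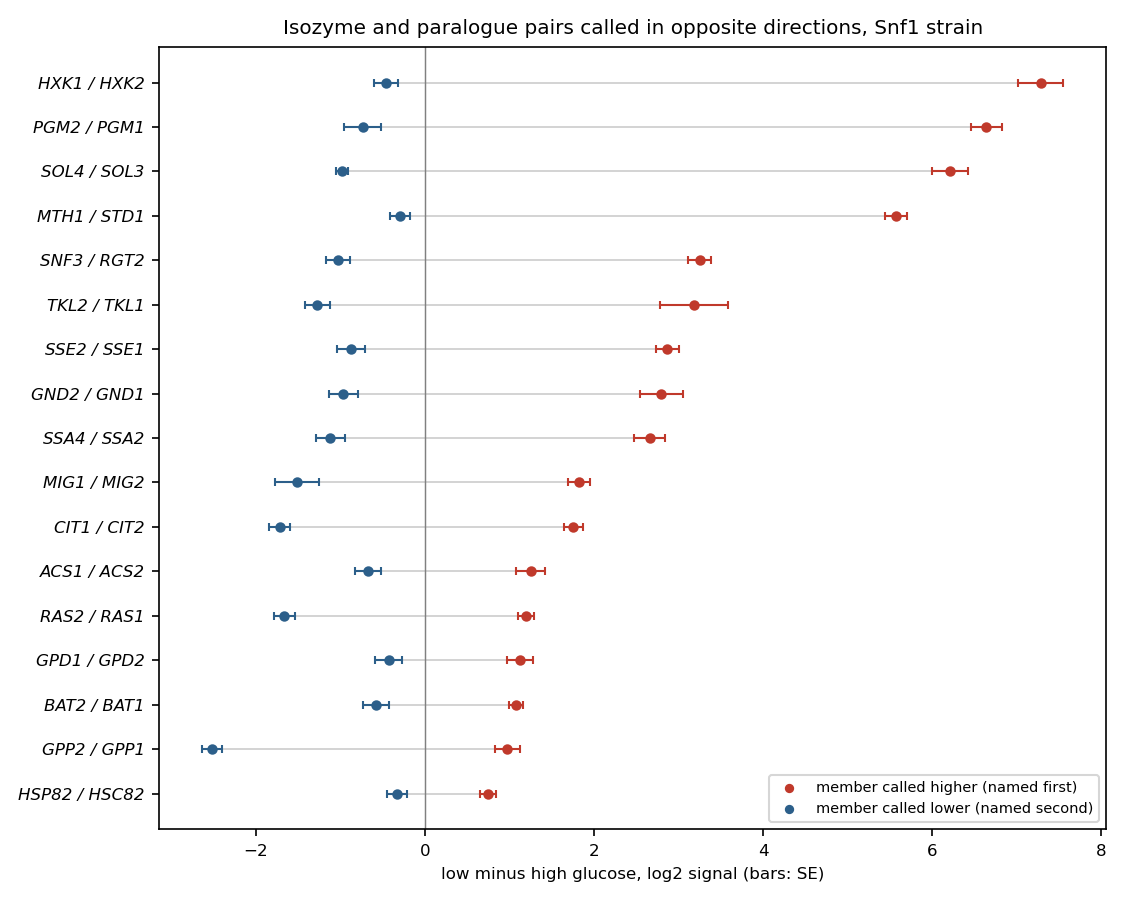
Low minus high glucose difference (log2 signal, bars show SE) for the members of the 17 isozyme or paralogue pairs called in opposite directions in the Snf1 strain. The member called higher (red, first name) reached 7.28 for HXK1 and the member called lower (blue, second name) -2.51 for GPP1.

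Across 42 measured pairs of isozymes or paralogues, the members were called in opposite directions in 17 and in the same direction in 17, with 16 pairs both higher and 1 pair, SHM1 and SHM2 of serine and one-carbon metabolism, both lower. In the other 8 only 1 member was called. The pairs were picked with earlier results known and describe these genes only. Citrate synthases were among those opposed. CIT1, the mitochondrial form, read 11.89, 12.19 and 12.04 at low glucose, against 10.20, 10.47 and 10.20 at high glucose. CIT2 read 9.87, 10.18 and 9.93 at low glucose, against 11.66, 11.75 and 11.72 at high glucose. The Ras genes also parted, RAS2 at 1.20 ± 0.10 and RAS1 at -1.66 ± 0.12, as did the branched-chain aminotransferases BAT2 at 1.08 ± 0.08 and BAT1 at -0.58 ± 0.15.

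Of 44 genes of beta-oxidation and peroxisomes 31 rose and 6 fell (median 0.62). POT1, the thiolase, read 6.26, 6.73 and 6.74 at low glucose, against 2.61, 2.70 and 2.61 at high glucose. POX1, the oxidase that starts each cycle, read 4.44, 4.58 and 4.64 at low glucose, against 2.86, 2.92 and 2.92 at high glucose. CAT2, carnitine acetyltransferase, rose 9.92-fold. PEX11 and PEX25, which take part in peroxisome division, fell, with differences of -0.79 ± 0.12 and -0.79 ± 0.10, and the catalase gene CTA1 stayed near the floor, at 2.42 against 2.26 at low and high glucose. In fatty acid synthesis 5 of 15 genes fell and 1 rose (median -0.07), a share of falls close to the 32.7% of all genes. The elongases ELO2 and ELO3 and the desaturase OLE1 fell, with differences of -1.38 ± 0.11, -1.83 ± 0.12 and -1.52 ± 0.20, while ACC1, which commits carbon to the pathway, differed by 0.06 ± 0.06 and was not called, though it was after quantile normalization (adjusted p = 0.0284). The sterol pathway fell in 19 of 30 genes and rose in 3 (median -0.64), and ERG7, lanosterol synthase, had the lowest difference at -1.17 ± 0.15. Of 22 phospholipid genes under inositol control 12 rose and 3 fell. INO1, inositol-3-phosphate synthase, read 10.35, 10.53 and 10.33 at low glucose, against 3.76, 3.96 and 3.84 at high glucose, and rose 93.3-fold. The phospholipid genes CHO1 and OPI3 rose by 1.26 ± 0.09 and 1.26 ± 0.07. Among their regulators INO4 rose by 1.12 ± 0.15, and INO2 differed by -1.11 ± 0.42 (adjusted p = 0.0319), a call lost when any of 4 of the arrays was left out.

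Stress genes rose far. Of 30 hydrophilin and Msn2/Msn4 target genes 28 rose and 0 fell (median 3.35). TMA10, a ribosome-associated stress protein, read 13.09, 12.77 and 12.92 at low glucose, against 6.95, 6.50 and 6.56 at high glucose. RTN2, of the reticulon family, rose 61.2-fold. A set of genes linked to growth on little glucose rose in 12 of 12 members. RGI1, which takes part in respiratory energy metabolism, read 13.45, 13.54 and 13.57 at low glucose, against 6.61, 6.78 and 6.82 at high glucose. ISF1, which bears on mitochondrial function, read 9.84, 10.10 and 9.97 at low glucose, against 2.26, 2.26 and 2.26 at high glucose, with all high-glucose arrays near the lowest signals of the series. RGI2, the paralogue of RGI1, read 6.47, 6.71 and 6.47 at low glucose, against 2.26, 2.26 and 2.27 at high glucose. These groups were far apart, and MBR1, the paralogue of ISF1, rose by 3.62 ± 0.39.

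Heat shock proteins were not a unit: 14 of 27 rose (51.9%) and 9 fell (33.3%). That share of falls was close to the 32.7% of all genes. The stress-induced HSP26, HSP42, HSP12 and HSP104 rose 25.1-fold, 13.2-fold, 10.8-fold and 5.36-fold, with HSP26 at 12.17, 11.95 and 11.96 at low glucose, against 7.29, 7.38 and 7.46 at high glucose. Among those that fell were chaperones that serve new proteins. SSB2, the ribosome-bound Hsp70, read 9.54, 9.61 and 9.36 at low glucose, against 11.13, 11.04 and 11.08 at high glucose. YDJ1, an Hsp40, read 8.36, 8.85 and 8.76 at low glucose, against 10.74, 10.96 and 10.79 at high glucose. Of the cytosolic Hsp70 genes SSA2 fell by 1.12 ± 0.18 and SSA4 rose by 2.66 ± 0.18. In oxidative defence 21 of 32 genes rose and 4 fell. GPX1 and PRX1 rose 19.3-fold and 13.4-fold, and the mitochondrial superoxide dismutase gene SOD2 read 12.13, 12.16 and 12.17 at low glucose, against 9.52, 9.67 and 9.68 at high glucose, and GPX2 fell by 1.04 ± 0.15.

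Autophagy genes rose in 25 of 35 cases and fell in 2 (median 0.97). ATG39, a receptor for degradation of the nuclear envelope, read 9.01, 8.90 and 8.99 at low glucose, against 3.44, 3.57 and 3.41 at high glucose. The core gene ATG8 rose 4.47-fold, and ATG41 fell, with 8.06, 8.15 and 8.11 at low glucose, against 9.63, 9.74 and 9.66 at high glucose. Vacuolar proteases rose as well, PRB1 by 1.73 ± 0.20 and PEP4 by 1.61 ± 0.17. Proteasome genes had small differences, all between -0.15 and 0.50. Of these genes 20 of 33 were called higher and 0 lower, and after quantile normalization 10 were higher and 2 lower.

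The lowest medians of the gene groups were those of ribosome assembly. All 49 genes of the small-subunit processome and box C/D particles fell (median -3.31), and so did 58 of 59 large-subunit assembly factors (median -3.32). Every one of these falls was at least 2-fold. NSR1, a nucleolar protein, read 4.99, 5.35 and 5.22 at low glucose, against 10.01, 9.98 and 10.11 at high glucose. The helicase gene DBP2 read 3.45, 3.96 and 3.57 at low glucose, against 8.20, 8.41 and 8.14 at high glucose. The GTPase gene NOG2 read 4.60, 4.78 and 4.74 at low glucose, against 9.10, 9.18 and 9.05 at high glucose. All 3 fell without overlap. BFR2, SRP40, RSA4 and UTP13 fell 19.2-fold, 20.2-fold, 18.3-fold and 17.8-fold. RSA1 was the exception, at 4.75 against 4.71 at low and high glucose, and was not called.

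RNA polymerase genes differed by the class of polymerase. Polymerase I and III genes fell in 31 of 41 cases (median -1.62). RPA49, a subunit of polymerase I, read 4.04, 4.70 and 4.50 at low glucose, against 8.61, 8.77 and 8.60 at high glucose, and fell 19.0-fold. RPA190, the largest subunit, fell 7.05-fold. MAF1, the repressor of polymerase III, rose by 0.82 ± 0.26 (adjusted p = 0.0134), a call lost without low-glucose replicate 2. Of 7 polymerase II subunit genes 4 fell and none rose, with differences between -0.78 and 0.20. Translation factor genes fell in 33 of 39 cases (median -1.07), among them the scaffold gene TIF4631 at -1.88 ± 0.19 and the elongation factor gene YEF3 at -1.55 ± 0.19. HEF3, the paralogue of YEF3, read 5.05, 5.40 and 5.17 at low glucose, against 3.80, 4.23 and 3.45 at high glucose, and rose.

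Genes of nucleotide synthesis fell too. AAH1 (YNL141W), adenine deaminase, read 3.55, 4.15 and 4.13 at low glucose, against 8.86, 8.89 and 9.09 at high glucose, the largest fall of the 5449 genes (32.1-fold, adjusted p = 1.05e-11). IMD4 and GUA1 of guanine nucleotide synthesis fell 10.5-fold and 9.66-fold, and 21 of 23 purine genes fell in all. Of 17 pyrimidine genes 12 fell and 4 rose. URA7, CTP synthase, read 4.26, 4.96 and 4.46 at low glucose, against 8.97, 9.10 and 8.87 at high glucose, a 21.4-fold fall, whereas its paralogue URA8 rose by 0.99 ± 0.14. URA10, the minor orotate phosphoribosyltransferase, rose 10.8-fold and URA5, the major form, fell 2.35-fold. The uracil and uridine permease genes FUR4 and FUI1 fell 6.49-fold and 8.95-fold.

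Amino acid synthesis fell in 45 of 62 genes and rose in 4 (median -0.87). The activator gene GCN4 differed by 0.14 ± 0.17 and was not called. SER2, LEU9 and HIS7, of serine, leucine and histidine synthesis, fell, with differences of -2.82 ± 0.15, -2.35 ± 0.28 and -1.94 ± 0.16. ARO9, which starts the breakdown of aromatic amino acids, read 5.71, 5.91 and 5.90 at low glucose, against 2.26, 2.26 and 2.26 at high glucose, and rose. Of 39 genes of nitrogen-regulated transport and use 15 rose and 14 fell, shares near those of all genes. Permease genes moved in both directions. DIP5, for acidic amino acids, read 3.94, 4.17 and 4.09 at low glucose, against 8.74, 8.75 and 8.49 at high glucose, and fell 24.1-fold. GNP1 and BAP3, for glutamine and branched-chain amino acids, fell 11.6-fold and 12.2-fold. The proline permease gene PUT4 read 8.37, 8.55 and 8.40 at low glucose, against 3.87, 3.87 and 3.82 at high glucose, and rose 24.0-fold. Of genes for breakdown, which have no list of their own and are examples, PUT1 for proline rose by 2.26 ± 0.18, CAR2 for arginine by 2.77 ± 0.27, UGA1 for gamma-aminobutyrate by 2.13 ± 0.10 and GDH2 for glutamate by 1.87 ± 0.08. Sulfate assimilation and methionine genes fell in 19 of 30 cases, among them the permease genes MUP1 and SAM3 at -2.75 ± 0.21 and -1.83 ± 0.15.

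Of 37 genes of iron, copper and zinc uptake 7 rose and 13 fell, and the other 17 were not called. The share of falls, 35.1%, was close to the 32.7% of all genes. The copper transporter genes CTR3 and CTR1 rose 22.5-fold and 3.87-fold, with CTR3 at 9.47, 9.46 and 9.33 at low glucose, against 4.76, 5.35 and 4.68 at high glucose. FTR1, the iron permease, read 8.08, 8.44 and 8.45 at low glucose, against 10.65, 10.84 and 10.65 at high glucose. FET3, its oxidase partner, and the siderophore transporter gene SIT1 fell too, with differences of -1.56 ± 0.13 and -2.69 ± 0.19. Of 23 genes of phosphate uptake and polyphosphate 5 rose and 8 fell (34.8%), again near the share of all genes. The phosphate transporter gene PHO84 read 2.83, 3.55 and 3.08 at low glucose, against 5.26, 5.01 and 4.71 at high glucose, and fell by 1.84 ± 0.48. PHO90, a low-affinity transporter, fell 4.39-fold.

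Of 31 genes of nutrient signalling 17 rose and 7 fell. TPK2 and BCY1, a catalytic subunit and the regulatory subunit, rose by 2.43 ± 0.17 and 1.66 ± 0.25, TPK3 fell by 1.38 ± 0.13, and YAK1, a kinase that acts against protein kinase A, rose by 2.48 ± 0.13. SCH9, the kinase downstream of TORC1, fell by 0.84 ± 0.20. TOD6, a repressor of ribosome assembly genes, read 2.43, 2.50 and 2.50 at low glucose, against 5.07, 5.33 and 5.20 at high glucose, and fell. Its paralogue DOT6 rose by 0.87 ± 0.11. MRK1, a kinase of the GSK3 family, read 9.35, 9.57 and 9.59 at low glucose, against 2.70, 2.74 and 2.73 at high glucose, and rose 110.2-fold. Of 23 cyclin and inhibitor genes 6 rose (26.1%) and 7 fell (30.4%), beside 34.7% and 32.7% of all genes. PCL1 was lowest at -1.53 ± 0.27 and the inhibitor gene SIC1 highest at 0.76 ± 0.12. At the cell surface FLO11, the adhesin of filamentous growth, read 8.04, 8.44 and 8.33 at low glucose, against 4.29, 4.33 and 3.57 at high glucose, and rose 18.5-fold. YGP1 and SPI1, for cell wall proteins of nutrient-limited cells, rose 19.5-fold and 18.1-fold.

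Further genes among those with the largest rises were EGO4 at 6.81 ± 0.22, the uncharacterized YMR206W at 7.10 ± 0.35, and DSF1, a mannitol dehydrogenase, at 6.85 ± 0.35. DSF1 read 9.35, 9.57 and 9.50 at low glucose, against 2.56, 2.72 and 2.60 at high glucose, on a probe set shared between similar sequences.

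Whether the response differed between strains was tested as the Snf1 response minus that of another strain. The tests against Alpha1 and T210A share the Snf1 arrays and are not independent. Against Alpha1, 13.7% of the genes were called, 4.37% (238) with a Snf1 response above that of Alpha1 and 9.32% (508) with one below it, and quantile normalization changed the split to 421 and 512. Arrays of Alpha1 at low glucose were less alike, with a median SD of 0.221, and without replicate 1 of that group 1158 genes were called, 323 above and 835 below, and without replicate 3 1085, of which 471 lay above and 614 below. Against T210A 39.5% were called, 18.3% (998) above and 21.2% (1155) below, and the larger side turned after quantile normalization, with 1275 above and 1097 below, and after median centring, with 1220 and 1114. The strains' own responses were called for 67.3% of genes in Snf1, 63.5% in Alpha1 and 70.5% in T210A.

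Ribosome assembly fell further in the Snf1 strain than in either of the other strains. For the small-subunit processome the median response was -3.31 in Snf1, -2.01 in Alpha1 and -1.69 in T210A, and 45 of 49 genes were called lower against Alpha1, against 9.32% of all genes, and 48 against T210A, against 21.2% of all genes. Large-subunit factors had medians of -3.32, -2.01 and -1.62, with 55 and 53 of 59 called lower. Leaving out each low-glucose Alpha1 array in turn gave 44 to 47 and 53 to 56 genes called lower against Alpha1. NSR1 responded by -4.85 in Snf1, -3.06 in Alpha1 and -3.37 in T210A.

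Other groups differed more from T210A. Amino acid synthesis had a median response of -0.87 in Snf1 and 0.13 in T210A, and 41 of 62 genes were called lower. Proteasome genes had medians of 0.24 and -0.35, and 25 of 33 were called higher, where 18.3% of all genes were. Histone genes had medians of 0.12 and -0.81, with 8 of 10 called higher. Against Alpha1 1 of the 10 histone genes was called higher, but 8 were without low-glucose Alpha1 replicate 1. Against Alpha1 the proteasome list held 0 called genes. For the respiratory chain 3 of 44 genes were called higher against Alpha1, beside 4.37% of all genes, and leaving out each low-glucose Alpha1 array in turn gave 1 to 17, the last without replicate 3. Against T210A 4 of 44 were called higher, beside 18.3% of all genes. The medians were 1.29 in Snf1, 1.03 in Alpha1 and 1.27 in T210A.

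**Figure D4:**
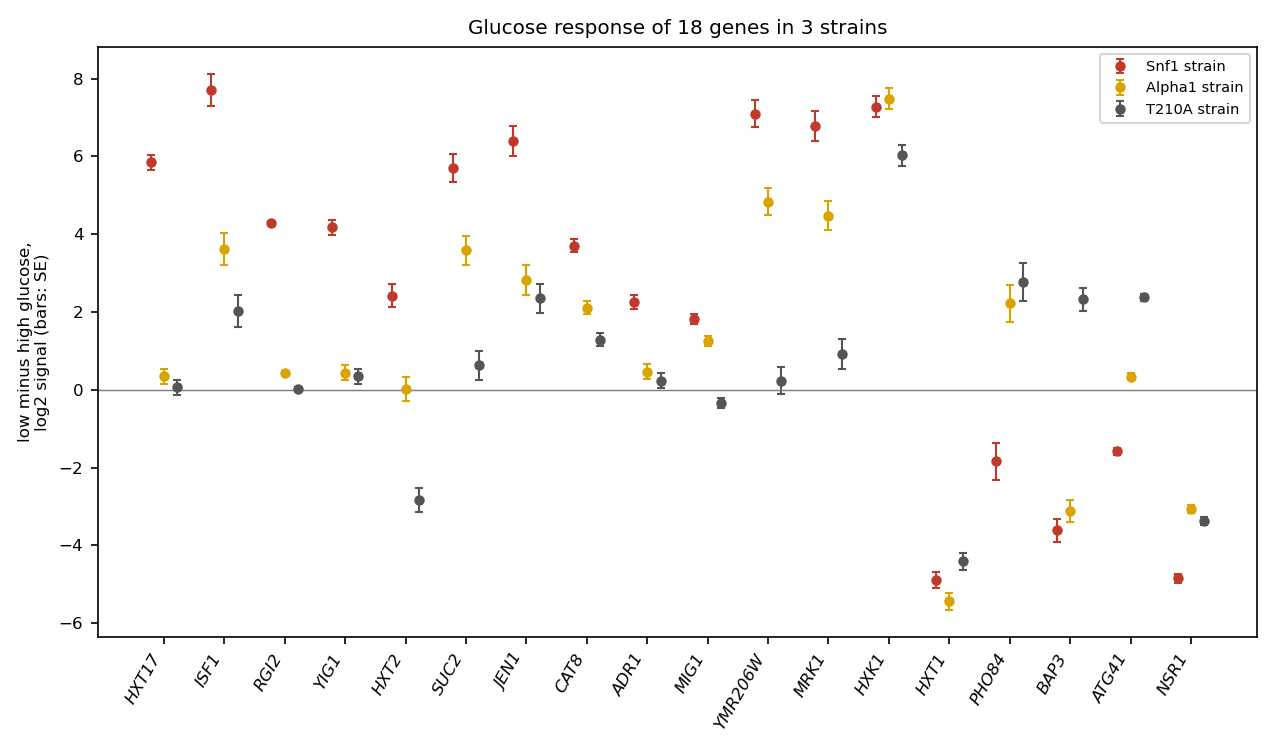
Low minus high glucose difference (log2 signal, bars show SE, n = 3 arrays per group) of 18 genes in the Snf1, Alpha1 and T210A strains, from left to right for each gene. HXT17, RGI2 and YIG1 rose in Snf1 and lay between 0.01 and 0.44 in the other strains, whereas HXK1 and HXT1 responded by more than 4 in all 3 strains, in opposite directions.

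Some genes responded more in the Snf1 strain than in both of the others. HXT17 responded by 5.85 in Snf1, 0.35 in Alpha1 and 0.07 in T210A. Its low-glucose arrays read 8.23, 8.42 and 8.40 in Snf1, 2.50, 2.50 and 3.54 in Alpha1 and 2.50, 2.48 and 2.50 in T210A, so the Snf1 arrays stood apart from the other 6. RGI2 responded by 4.28, 0.43 and 0.01, and YIG1, a regulator of glycerol synthesis, by 4.18, 0.44 and 0.35. The response of RGI2 differed by 3.85 ± 0.07 against Alpha1 (adjusted p = 3.65e-13) and by 4.27 ± 0.07 against T210A (adjusted p = 9.31e-14). Its Snf1 arrays had an SD of 0.0 at high glucose, near the floor, and of 0.14 at low glucose. The standard errors pool all arrays, so they and the p-values understate the spread of RGI2 at low glucose in Snf1. ISF1 responded by 7.71 in Snf1, 3.62 in Alpha1 and 2.02 in T210A. The activator gene ADR1 responded by 2.25 in Snf1, 0.47 in Alpha1 and 0.24 in T210A, and CAT8 by 3.70, 2.11 and 1.29. All differences from Alpha1 and T210A were called for HXT17, RGI2, YIG1, ISF1, ADR1 and CAT8.

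The sugar genes divided by strain. SUC2 responded by 5.70 in Snf1, 3.59 in Alpha1 and 0.63 in T210A, with differences of 2.11 ± 0.52 (adjusted p = 0.0153, but 0.056 with only the Snf1 and Alpha1 arrays fitted) and 5.07 ± 0.52 (adjusted p = 6.76e-06). HXT2 responded by 2.42, 0.02 and -2.84, so its direction in T210A was the opposite of that in Snf1 (5.26 ± 0.43, adjusted p = 1.05e-06). JEN1 responded by 6.40, 2.82 and 2.35, and both differences were called. MIG1 responded by 1.82 in Snf1 and -0.33 in T210A (adjusted p = 1.57e-06). For HXT1 neither difference was called, at 0.55 ± 0.30 against Alpha1 and -0.48 ± 0.30 against T210A. That against Alpha1 was called after quantile normalization (adjusted p = 0.0439) and without Alpha1 low-glucose replicate 2 (0.89, adjusted p = 0.003). That against T210A was called with array weights (adjusted p = 0.0132) and with only the compared groups fitted (adjusted p = 0.00316). For HXK1 the difference from Alpha1 was not called (-0.20 ± 0.38), but that from T210A was (1.25 ± 0.38, adjusted p = 0.0174).

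For other genes the Snf1 response lay below that of another strain. PHO84 responded by -1.84 in Snf1, 2.22 in Alpha1 and 2.78 in T210A, and ATG41 by -1.57, 0.33 and 2.38. BAP3, the permease of branched-chain amino acids, responded by -3.61 in Snf1 and -3.11 in Alpha1, against 2.33 in T210A. EFM6, a methyltransferase of an elongation factor, responded by -1.45, 0.22 and 2.67. In contrast YMR206W responded by 7.10 in Snf1, 4.83 in Alpha1 and 0.23 in T210A, and MRK1 by 6.78, 4.48 and 0.92. The cell wall gene CWP1 responded by 1.23 in Snf1, 3.38 in Alpha1 and -0.37 in T210A, the zinc transporter gene ZRT1 by 1.08, 3.15 and 2.24, and the uncharacterized YEL073C by 1.75, 4.15 and 3.06. Of the differences of these genes from the strains named, those of BAP3 from Alpha1 and of ZRT1 from T210A were not called (for ZRT1 adjusted p = 0.0588, or 0.0403 with the replicate block, and called under 8 of the alternative settings).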

How the data were processed

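The deposited values are log2 signals of 5716 probe sets on 18 Affymetrix yeast arrays, made with RMA from the affy package per the submitters' processing notes. RMA corrects background, scales arrays to a common distribution and summarises probes, so folds of dim genes are compressed. Array medians lay between 6.77 and 7.03. A probe set matched 1 gene in 5498 cases and none in 218, and the probe set of highest mean stood for each of 5449 genes. Groups came from the titles.

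A model of group means over the 18 arrays (12 residual degrees of freedom) was fitted with limma 3.58.1 under R 4.3.3, with moderated tests and Benjamini-Hochberg adjustment over all genes. The fit was tested on simulated data. Each comparison was simulated 5 times, with 200 of the 5449 genes changed. Between glucose levels the fit recovered 91.2% of genes changed by 1 log2 unit and 58.2% of those changed by 0.5. False calls averaged 13.6. For the response differences from Alpha1 and T210A it recovered 73.2% and 72.4% at 1 log2 unit, but only 28% and 31% at 0.5. A response difference that was not called may therefore be a missed one. In the Snf1 arrays 67.3% of genes were called, far more than were changed in the simulations, so these rates may not carry over. Same-numbered low and high arrays of the Snf1 strain deviated together (r = 0.46, 0.58 and 0.20), so the numbers may pair them. Between strains r of same-numbered arrays ran from -0.24 to 0.71. The differences, standard errors and calls given here come from the fit without a replicate block, unless a block is named. Adding that block changed the count of calls by less than 1.5 times. Alternatives covered scaling, filters, array weights, the prior, chromosome VIII and left-out arrays.

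The gene groups, pairs and named genes were chosen with earlier results of these data known. Named were the 12 largest rises and falls, fixed anchors, the largest changes of each group, members of small groups and pairs, and the 4 largest response differences in each direction. Further members, such as other subunits, isozymes and genes that were not called, were picked after their values were seen. Promoters were not analysed here.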

Additional observations from a re-analysis of the deposited data

Results flagged for a closer look

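The log2 response to low glucose of the genes listed here was called different between the Snf1 strain and another strain. The test was limma's test of the difference itself over 5449 genes. Values are the Snf1 response minus that of the other strain, and the Alpha1 and T210A differences share the Snf1 arrays. The list does not hold every named gene so called. Among the others were DSF1 at 3.25 from Alpha1 and 4.51 from T210A, and NOG2 at -1.92 from Alpha1 and -2.43 from T210A. The differences of DSF1 and NOG2, those of MRK1 and YMR206W from Alpha1 and that of HXK1 from T210A were not followed through the other settings. The Snf1 response lay above both others for HXT17 at 5.50 from Alpha1 and 5.78 from T210A, ISF1 at 4.09 from Alpha1 and 5.69 from T210A, RGI2 at 3.85 from Alpha1 and 4.27 from T210A, and YIG1 at 3.74 from Alpha1 and 3.83 from T210A. The same held for JEN1 at 3.58 from Alpha1 and 4.05 from T210A, HXT2 at 2.41 from Alpha1 and 5.26 from T210A, SUC2 at 2.11 from Alpha1 and 5.07 from T210A, and ADR1 at 1.78 from Alpha1 and 2.02 from T210A. The same held for CAT8 at 1.59 from Alpha1 and 2.41 from T210A. It lay below both for PHO84 at -4.06 from Alpha1 and -4.62 from T210A, YEL073C at -2.40 from Alpha1 and -1.31 from T210A, ATG41 at -1.91 from Alpha1 and -3.96 from T210A, and NSR1 at -1.79 from Alpha1 and -1.48 from T210A. Lower than both were also EFM6 at -1.67 from Alpha1 and -4.12 from T210A. CWP1 differed in opposite directions, at -2.15 from Alpha1 and 1.60 from T210A. The Snf1 response also lay above both for MRK1 at 2.30 from Alpha1 and 5.86 from T210A, and YMR206W at 2.27 from Alpha1 and 6.87 from T210A. Against T210A, further differences were those of BAP3 at -5.94, MIG1 at 2.16 and HXK1 at 1.25. Against Alpha1 a further one was that of ZRT1 at -2.07. For ADR1, CAT8, DSF1, HXT17, ISF1, MRK1, RGI2, YIG1 and YMR206W the high-glucose mean of the Snf1 strain was near the floor, and for PHO84 the low-glucose mean was. Among genes with a mean near the floor in another strain were BAP3, JEN1, PHO84 and HXT17, the last at low glucose in both Alpha1 and T210A. The part of such means in the size of the differences was not tested.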

How the results depend on the processing

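Against 3669 genes called between low and high glucose in the Snf1 strain, counts were 3645 with an intensity trend in the prior, 3784 with the compared groups alone, 3831 after quantile normalization, 3758 after median centring, 3624 with genes above the floor in some group and 4291 with array weights, and 3453 to 3520 when each of its arrays was left out in turn. With replicate number as a block 3924 genes were called, and 3888 with a block within each strain, the form chosen after seeing the data. Beyond TUP1, MSN2, ZWF1 and ZRT1, the replicate block changed no call that was followed for a named gene. The block within each strain added CYC8 and left TUP1 uncalled (adjusted p = 0.0698). Requiring a 2-fold difference left 1655. For the response difference from Alpha1, 746 genes became 288 with a 2-fold minimum, 491 with the compared groups alone, 1024 with the replicate block, and 587 to 1158 when each array was left out, the last without Alpha1 low-glucose replicate 1. For that from T210A, 2153 became 814 with a 2-fold minimum, 3252 with array weights, 2543 with the replicate block and 1885 to 1977 when each array was left out. Of the other settings run for these 3 comparisons none moved a total by over 1.5 times. Of the counts in 1 direction, the 238 genes above Alpha1 became 421 after quantile normalization and 139 with the compared groups alone, and the 998 above T210A 1560 with array weights.

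Of 282 named genes, 262 kept their call for the glucose response under the settings run for them. The 2-fold minimum was run for counts only, and genes with a mean under 5 had no value where a mean of 5 or more was required. Genes with near-zero differences changed sign. ADH2, at 0.02, came to -0.28 after quantile normalization (adjusted p = 0.022), -0.01 after median centring and -0.06 with array weights, and lay between -0.04 and 0.07 when each array was left out. HXT5, at 0.04, came to -0.20 after quantile normalization and between -0.01 and 0.07 when each array was left out. CDC19, at 0.04, came to -0.20 after quantile normalization (adjusted p = 0.0399). The HXK1 response difference from Alpha1 came to 0.28 with array weights and between -0.49 and 0.11 when each array was left out. For these the cause was not tested. Array number and signal near the floor limit precision. The planned description of promoter motifs was not run, as no promoter sequences were used here.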

Other observations

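In the cell wall list 22 of 48 genes rose and 8 fell, against 34.7% and 32.7% of all genes. UTR2, a wall transglycosylase, read 8.85, 9.17 and 8.97 at low glucose, against 11.04, 11.33 and 10.94 at high glucose, and fell 4.30-fold, and the glucan synthase gene FKS1 fell by 0.70 ± 0.11. PIR3, a wall protein, rose by 2.14 ± 0.38, and the abundant wall proteins CCW12 and SED1 rose by 0.38 ± 0.05 and 1.22 ± 0.18. In the mating pathway 10 of 22 genes rose and 3 fell, the rises including FUS2 and AGA1, of cell fusion and agglutination, by 1.53 ± 0.10 and 1.27 ± 0.17, while the kinase gene STE20 fell by 0.97 ± 0.12.

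Genes of vitamin B6 and thiamine showed no common direction, with 4 of 19 rising and 5 falling. SNZ1, of vitamin B6 synthesis, read 7.39, 7.67 and 7.63 at low glucose, against 9.77, 9.98 and 10.22 at high glucose, and fell 5.38-fold, and its neighbour in function SNO1 fell 7.24-fold. Genes for allantoin use rose modestly, DAL2 and DAL3 by 0.97 ± 0.15 and 0.93 ± 0.15, and the ammonium permease gene MEP2 fell by 1.69 ± 0.19. In the GSK3 family RIM11 rose by 1.98 ± 0.18 and YGK3 fell by 1.30 ± 0.22, its low-glucose mean being 3.16. Among sirtuin genes HST2 rose by 1.38 ± 0.22 and SIR2 fell by 0.42 ± 0.12.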
